A study of Homo sapiens with 8 samples.

Results

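The transcripts described here encode the G1 cyclins, their kinases and the RB pathway: CCND2, CCND3, CCNE1, CCNE2, CDK4, CDK6, RB1, RBL2, E2F1 and CDKN1B. They are 10 of the 16557 genes that could be named on the array, and were chosen with earlier results of these data known. Every probe whose transcript identifier maps to one of them was taken, whatever its values. This gave 17 probes, with several probes for 6 of the genes and 1 probe for each of the other 4. All 17 are accounted for below.

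L1236 is a Hodgkin lymphoma cell line, grown from a B-cell lymphoma in which the microRNA miR-155 is abundant. One population was transduced with the empty retroviral vector pMSCV-PIG (EV), the other with the same vector carrying a miR-155 sponge, a transcript with miR-155 binding sites that competes with natural targets for the microRNA, and GFP+ cells were sorted from both. Total RNA (T) and RNA precipitated with an antibody against Ago2 (IP), the protein that holds microRNAs on their target transcripts, gave 4 RNA samples, labelled once in either dye (Cy3, Cy5) and hybridised to 4 two-colour arrays with 8 channels, IP and T of one population sharing an array. The question of the design was which transcripts are enriched in the IP fraction and whether the sponge alters this. Each group is 1 RNA sample, so no test was run and p-values are absent. Errors are the SD over both dye orientations for IP/T, or over both dyes for a difference between populations (n = 2 technical readings). They cover labelling and hybridisation, not the spread between cultures or precipitations, and no precipitate with a control antibody was analysed here.

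In G1, D-type cyclins switch on CDK4 and CDK6, which begin the phosphorylation of RB1 and its relative RBL2. CCNE1 and CCNE2 with CDK2 complete it, which frees E2F factors such as E2F1 to transcribe the genes of S phase, while CDKN1B (p27) holds the cyclin-CDK complexes back. Cyclin and CDK transcripts are known targets of several microRNA families, which bind mainly through the seed, bases 2 to 8 of the mature strand.

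The mature strand of the microRNA bound by the sponge is shown first, because the comparison of both populations rests on its seed. It lies at chr21:25573983-25574006 on the plus strand of GRCh38.p14, and the sequences are those of RefSeq, with the seed in capitals.
hsa-miR-155-5p: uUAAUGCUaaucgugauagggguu
The others are microRNAs with textbook targets among these genes, given to show which seeds differ from that of miR-155. The let-7 family is known for targeting CDK6 and CCND2, miR-15a and miR-16 for CCNE1 and CCND3, miR-17 and miR-20a for E2F1 and RBL2, miR-221 and miR-222 for CDKN1B, and miR-34a for CCNE2 and CDK6. Each pair shares 1 seed, and none has that of miR-155.
hsa-let-7a-5p: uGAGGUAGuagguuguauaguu
hsa-let-7b-5p: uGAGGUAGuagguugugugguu
hsa-miR-15a-5p: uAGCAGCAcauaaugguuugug
hsa-miR-16-5p: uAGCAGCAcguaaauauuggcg
hsa-miR-17-5p: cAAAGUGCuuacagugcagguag
hsa-miR-20a-5p: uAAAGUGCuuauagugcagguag
hsa-miR-221-3p: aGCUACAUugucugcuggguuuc
hsa-miR-222-3p: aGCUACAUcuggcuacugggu
hsa-miR-34a-5p: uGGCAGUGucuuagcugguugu
The arrays did not measure microRNAs, and Ago2 carries all of them, so an IP/T ratio cannot be assigned to any one of these families.

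Between 54.13% and 65.75% of the spots of a channel were well above background, the lowest being the Cy5 channel of the sponge T sample, and no spot was saturated. In that T sample, 10.7% of detected probes differed by more than 2-fold between Cy3 and Cy5, against 1.14% to 2.78% in the other 3 RNA samples. Probes were kept if they were well above background in at least 4 channels and within 2-fold between dyes in every RNA sample, which left 22471. Of the cell type markers, all 8 of Hodgkin and Reed-Sternberg cells were detected in EV T, as were 4 of 6 of mature B cells, 0 of 5 of T cells, 2 of 5 of monocytes and 0 of the 3 fibroblast markers on the array.

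In all 8 channels, 16 of the 17 probes exceeded the background and 15, from 9 genes, were kept. The dye filter removed the probe of CCNE2 and 1 of the 2 probes of RB1, both for the sponge T sample, in which their dyes lay 3.31-fold and 2.13-fold apart. Both are described below as values outside the main counts.

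**Figure D1:**
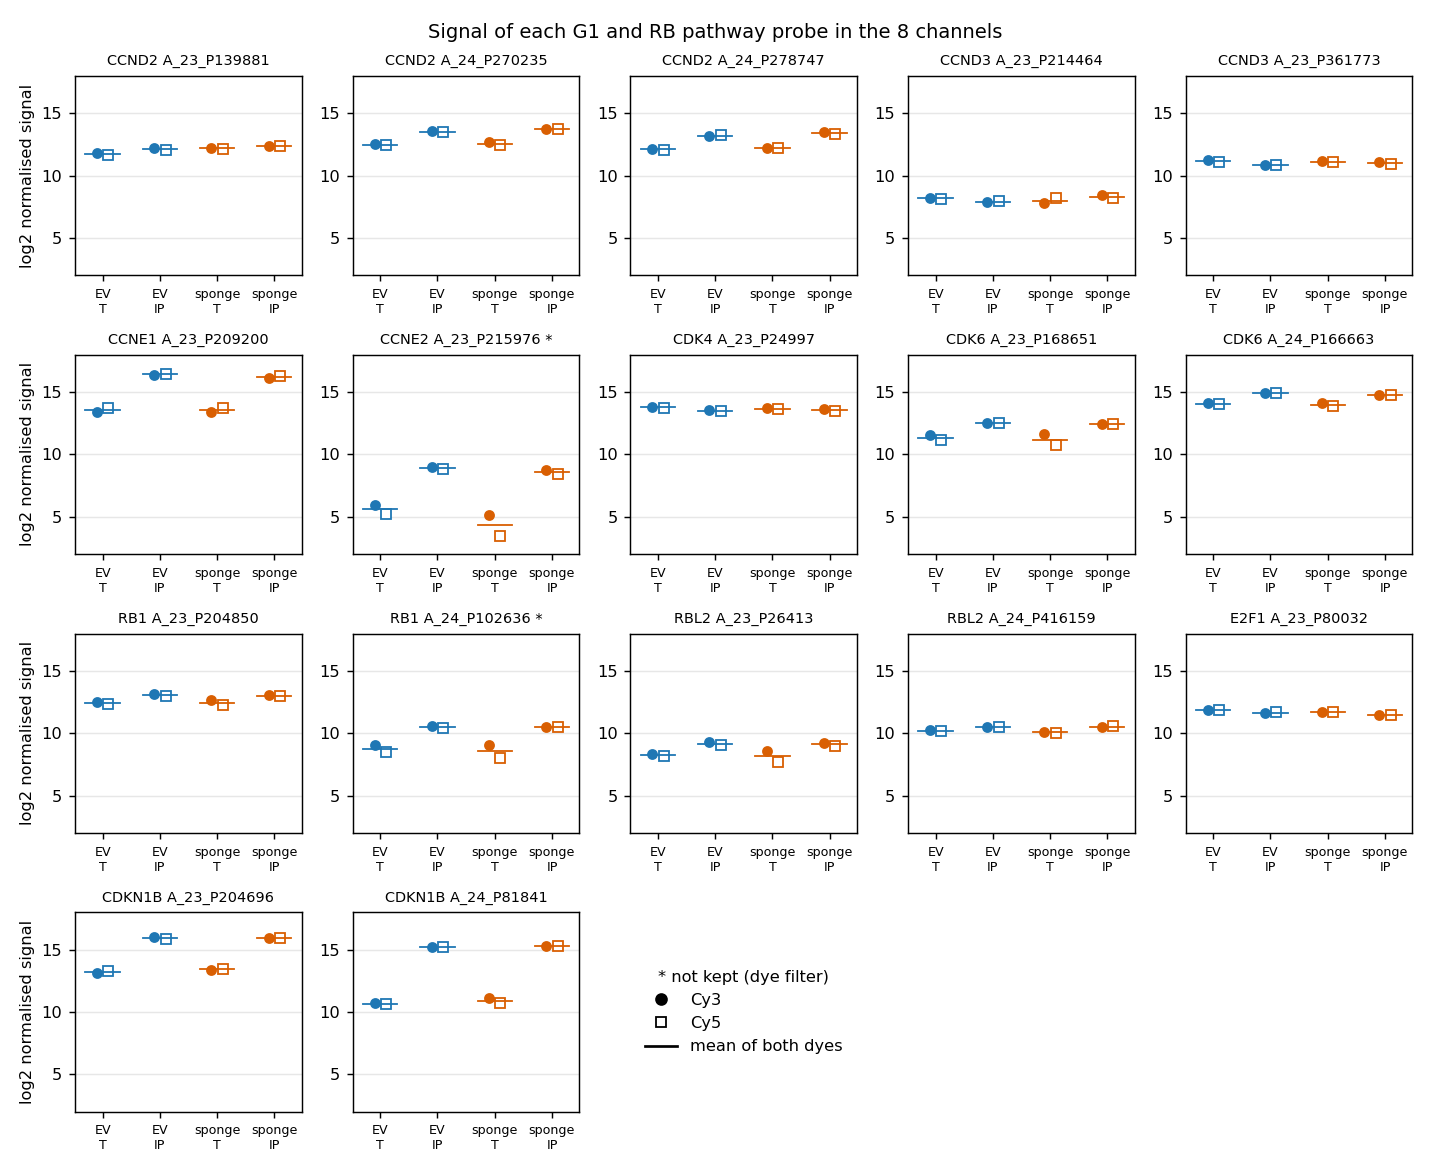
Normalised log2 signal (vertical axis) of the 17 probes in EV and sponge T and IP, with Cy3 as filled circles, Cy5 as open squares and lines at the mean of both dyes. The steps from T to IP are large for CCNE1 and CDKN1B in both populations, the T signals of CCNE2 are near background, and E2F1, CDK4 and CCND3 lie nearly level.

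CDKN1B and CCNE1 transcripts were the most enriched of the kept probes, at IP/T between 6.67 and 23.1 in EV cells. The kept probes of CCND2, CDK6, RB1 and RBL2 overlapped, with 2 of 3 CCND2 probes and 1 of 2 CDK6 probes at 2.04 to 2.29 and the others between 1.21 and 1.92. CCND3, CDK4 and E2F1 had a slightly lower signal in IP than in T, a place near the middle of all kept probes (above 43.4% to 48.2% of them). At IP/T of 2 or more, 6 of the 15 kept probes from 4 genes (CCND2, CCNE1, CDK6 and CDKN1B) were enriched in EV cells, where 17.5% of all kept probes were, and 6 probes of the same 4 genes in sponge cells, where 17.5% were. Depletion of 2-fold or more from the IP fraction was found for 0 of the 15 in EV cells (19.0% of all kept probes) and 0 in sponge cells (17.8%). The median log2 IP/T of the 15 was 0.86 in EV and 0.81 in sponge cells, beside -0.16 and -0.13 for all kept probes. With the normexp background correction, 8.76% of all kept probes were at 2 or more in EV cells after loess and Aquantile. After quantile normalisation the share was 7.58%. All 17 probes of the pathway were kept under both settings, so the counts differ in base from the 6 of 15. At 2 or more were 7 and 5 of the 17, RB1 A_24_P102636 among them. The median of all kept probes moved to 0.0082 and -0.034. Probes of one gene carry the same transcript identifier and are not independent. Whether they detect the same transcript variants could not be determined.

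**Figure D2:**
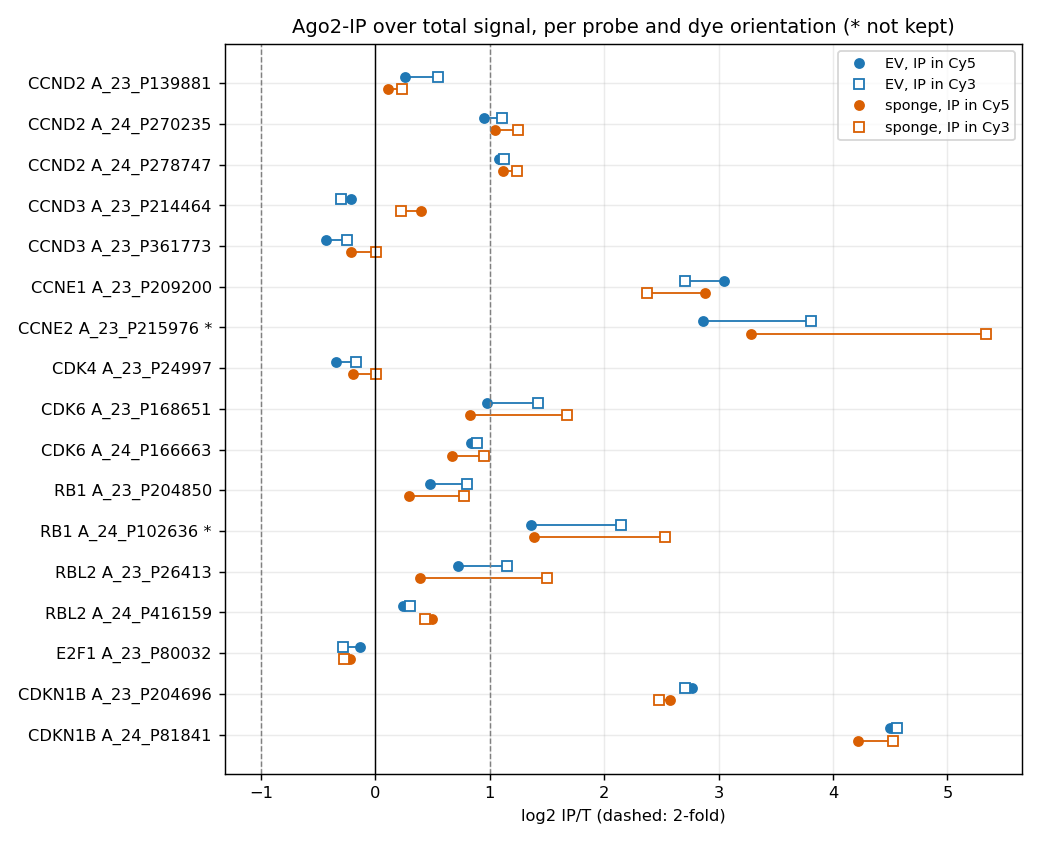
Log2 IP/T (horizontal axis) of each of the 17 probes in EV (blue) and sponge cells (orange), with 1 marker for each dye orientation. CDKN1B and CCNE1 lie beyond 2 in both populations, and the widest gaps between markers belong to probes with a large dye difference in sponge T, such as CCNE2 and RBL2 A_23_P26413.

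**Figure D3:**
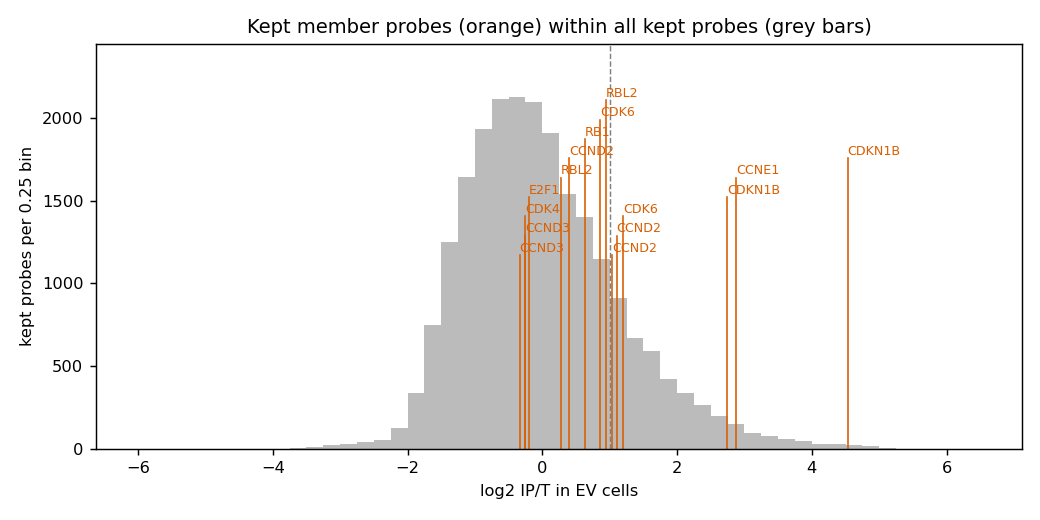
Number of kept probes (vertical axis) by log2 IP/T in EV cells (horizontal axis, bins of 0.25), with the 15 kept probes of the pathway as orange lines whose heights carry no value. The lines run from -0.34 for CCND3 to 4.53 for CDKN1B, and 6 lie right of the dashed line at 2-fold.

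CCND2, a D-type cyclin used by activated B cells, has 3 probes. Probe A_24_P278747 read 12.14 (Cy3) and 12.05 (Cy5) on the log2 signal scale in EV T, 13.18 and 13.22 in EV IP, 12.22 and 12.22 in sponge T, and 13.46 and 13.34 in sponge IP. Probe A_24_P270235 read 12.50 and 12.44 in EV T, 13.54 and 13.45 in EV IP, 12.67 and 12.46 in sponge T, and 13.71 and 13.71 in sponge IP. In both, IP lay above T in every channel, and log2 IP/T was 1.10 ± 0.03 and 1.03 ± 0.11 for EV, against 1.18 ± 0.09 and 1.14 ± 0.14 for sponge cells. The third probe, A_23_P139881, read 11.79 and 11.65 in EV T, 12.19 and 12.05 in EV IP, 12.24 and 12.16 in sponge T, and 12.40 and 12.36 in sponge IP. Its log2 IP/T was lower, at 0.40 ± 0.20 and 0.17 ± 0.08, a 1.63-fold gap between the highest and the lowest CCND2 probe in EV cells and a 2.01-fold gap in sponge cells. All 3 CCND2 probes were higher in sponge than in EV cells in both dyes, in T and in IP. In T the differences were 0.48 ± 0.05 for A_23_P139881, 0.10 ± 0.10 for A_24_P270235 and 0.12 ± 0.06 for A_24_P278747, and in IP they were 0.26 ± 0.07, 0.21 ± 0.07 and 0.20 ± 0.11. The first of these, 1.40-fold, was the largest T difference of the kept probes of the pathway and exceeded 97.4% of all kept probes, while the other CCND2 probes exceeded 72.2% and 75.4%.

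CCND3, the D-type cyclin known for its part in germinal centre B cells, was not enriched. Probe A_23_P361773 read 11.23 and 11.12 in EV T, 10.88 and 10.80 in EV IP, 11.15 and 11.09 in sponge T, and 11.10 and 10.93 in sponge IP. Log2 IP/T was -0.34 ± 0.13 in EV and -0.10 ± 0.16 in sponge cells, the second within its dye spread. Probe A_23_P214464 was dimmer, reading 8.18 and 8.15 in EV T, 7.85 and 7.97 in EV IP, 7.78 and 8.21 in sponge T, and 8.44 and 8.18 in sponge IP. Here log2 IP/T was -0.26 ± 0.06 in EV and 0.32 ± 0.12 in sponge cells, so the sponge minus EV difference was 0.57 ± 0.06, above 98.2% of all kept probes. That difference was 0.13 and 0.14 with both normexp settings, 0.15 from Cy5 alone and 0.99 from Cy3 alone. The other probe moved the same way by 0.24 ± 0.03. In the IP fraction itself CCND3 was higher in sponge cells in both dyes of both probes, by 0.40 ± 0.27 (0.055 and 0.078 with normexp) and 0.18 ± 0.07, and in T the differences were -0.17 ± 0.33 and -0.06 ± 0.04. With the normexp correction, loess and Aquantile, the EV ratio of A_23_P214464 turned to 0.051 and the T difference of A_23_P361773 to 0.045, and with Cy5 readings alone the sponge ratio of A_23_P214464 was -0.029. CCND2 thus had the higher IP/T of the D cyclins in EV cells for all 6 pairs of probes, by 0.66 to 1.44 on the log2 scale. In sponge cells the same pairs ran from -0.14 to 1.28.

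The G1 kinases divided in the same manner. CDK6 probe A_24_P166663 read 14.09 and 14.05 in EV T, 14.94 and 14.93 in EV IP, 14.11 and 13.85 in sponge T, and 14.80 and 14.78 in sponge IP. The log2 ratio of IP to T was 0.86 ± 0.04 for EV and 0.81 ± 0.20 for sponge cells. Probe A_23_P168651 gave 1.20 ± 0.32 and 1.25 ± 0.60, with sponge T readings 1.85-fold apart (11.61 and 10.72). CDK4 read 13.84 and 13.71 in EV T, 13.54 and 13.50 in EV IP, 13.69 and 13.63 in sponge T, and 13.64 and 13.50 in sponge IP. Its IP reading was below T on both EV arrays, with a log2 IP/T of -0.26 ± 0.12, and the sponge value, -0.09 ± 0.14, lay within the dye spread. IP/T of CDK6 exceeded that of CDK4 in EV cells by 1.45 ± 0.19 and 1.12 ± 0.08 for its 2 probes, and in sponge cells by 1.35 ± 0.46 and 0.90 ± 0.06. Both CDK6 probes were lower in sponge than in EV IP in both dyes (-0.11 ± 0.04 and -0.14 ± 0.00) and disagreed between dyes in T. CDK4 was lower in sponge T in both dyes (-0.11 ± 0.06) and mixed in IP (0.05 ± 0.07).

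CCNE1, the first of the E cyclins, was strongly enriched. It read 13.44 and 13.69 in EV T, 16.40 and 16.48 in EV IP, 13.41 and 13.72 in sponge T, and 16.10 and 16.29 in sponge IP. No IP reading came near a T reading, and IP/T was 7.34-fold in EV cells (log2 2.87 ± 0.24) and 6.19-fold in sponge cells (2.63 ± 0.36), above 98.0% and 97.4% of all kept probes. CCNE1 was lower in sponge IP in both dyes, with a difference of -0.25 ± 0.08, beside 0.0005 ± 0.04 in T. The IP difference was the lowest of the 15 kept probes and corresponds to 1.19-fold.

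CCNE2, the second E cyclin, was near background in T. It read 5.95 and 5.20 in EV T, 9.01 and 8.81 in EV IP, 5.17 and 3.44 in sponge T, and 8.78 and 8.45 in sponge IP. The IP readings were well above background in both dyes of both populations, the T readings in 1 of 2 dyes in EV cells and in 0 of 2 in sponge cells. The log2 IP/T in EV cells was 3.33 ± 0.67 as processed here, but 0.92 and 0.82 with the normexp correction, followed by loess and Aquantile or by quantile normalisation, so the size of the CCNE2 ratio is not settled and may be under 2-fold. In sponge cells the loess and Aquantile normalised channel means put IP 1.54-fold above T. That is the ratio under this setting, with T not well above background, and not a lower bound. No fold is given for CCNE2 in T between the populations, since the sponge T signal is not well above background. In IP, CCNE2 was lower in sponge cells in both dyes (-0.30 ± 0.09), as CCNE1 was.

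The pocket proteins, which bind and silence E2F factors, gave smaller ratios in the kept probes. RB1 probe A_23_P204850, printed on 10 spots, read 12.54 and 12.32 in EV T, 13.12 and 13.02 in EV IP, 12.65 and 12.26 in sponge T, and 13.04 and 12.95 in sponge IP. Log2 IP/T was 0.64 ± 0.23 in EV and 0.53 ± 0.34 in sponge cells. The RB1 probe lost to the dye filter, A_24_P102636, read 9.05 and 8.47 in EV T, 10.61 and 10.41 in EV IP, 9.08 and 7.99 in sponge T, and 10.53 and 10.47 in sponge IP. It gave 1.76 ± 0.55 and 1.96 ± 0.81. With normexp, loess and Aquantile the EV ratios were 1.20 for this probe and 0.70 for the kept one, and with normexp and quantile normalisation 1.00 and 0.58. RBL2 (p130) is the pocket protein of resting cells. Its probe A_24_P416159 read 10.23 and 10.16 in EV T, 10.47 and 10.47 in EV IP, 10.10 and 10.04 in sponge T, and 10.47 and 10.59 in sponge IP, for log2 IP/T of 0.27 ± 0.04 and 0.47 ± 0.04. Probe A_23_P26413 gave 0.94 ± 0.30 and 0.95 ± 0.79, with sponge T readings of 8.57 and 7.73. The probes of RBL2 were 0.66 ± 0.26 apart in EV cells and 0.48 ± 0.83 apart in sponge cells, the second within the spread, and with normexp the EV ratio of A_23_P26413 was 0.49 or 0.30. RBL2 A_24_P416159 was lower in sponge T in both dyes (-0.13 ± 0.00) and higher in IP (0.06 ± 0.08), and the kept RB1 probe differed by 0.03 ± 0.12 in T and -0.07 ± 0.00 in IP.

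E2F1, the transcription factor that RB1 restrains, was printed on 10 spots and read 11.83 and 11.87 in EV T, 11.59 and 11.70 in EV IP, 11.71 and 11.72 in sponge T, and 11.45 and 11.49 in sponge IP. Every IP reading was below every T reading of its population. Log2 IP/T was -0.20 ± 0.10 in EV and -0.24 ± 0.03 in sponge cells. E2F1 was lower in sponge cells in both dyes, with differences of -0.14 ± 0.02 in T and -0.18 ± 0.05 in IP, and its log2 ratio differed by -0.04 ± 0.07.

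CDKN1B had the highest ratio of the pathway. Probe A_24_P81841, on 10 spots, read 10.72 and 10.64 in EV T, 15.19 and 15.22 in EV IP, 11.10 and 10.75 in sponge T, and 15.28 and 15.33 in sponge IP. IP/T was 23.1-fold in EV cells (log2 4.53 ± 0.04) and 20.7-fold in sponge cells (4.37 ± 0.22), in both cases above 99.8% of all kept probes. Over its 9 or 10 unflagged spots, the SD within a channel was 0.055 to 0.085 on the log2 scale. Probe A_23_P204696 read 13.10 and 13.31 in EV T, 16.02 and 15.87 in EV IP, 13.40 and 13.46 in sponge T, and 15.94 and 15.97 in sponge IP, for 6.67-fold (2.74 ± 0.05) and 5.76-fold (2.53 ± 0.07). The ratios of both probes were 3.46-fold apart in EV cells (1.79 ± 0.08 on the log2 scale) and 3.60-fold apart in sponge cells, beyond the dye spread in both populations. Both CDKN1B probes were higher in sponge T in both dyes, by 0.25 ± 0.20 and 0.22 ± 0.11, and differed in IP by 0.10 ± 0.02 and 0.01 ± 0.13. The sponge minus EV difference in log2 IP/T was -0.15 ± 0.18 and -0.21 ± 0.02, the first within its dye spread. The second was -0.051 and -0.10 with the normexp settings, -0.38 from Cy3 alone and -0.045 from Cy5 alone. With normexp the T difference of A_23_P204696 was 0.093 and 0.105.

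The differences between sponge and EV cells were small throughout. The study described miR-155 targets as only mildly depleted from the IP fraction of sponge-transduced Hodgkin cells. How much miR-155 the sponge bound was not measured on these arrays. A change of 2-fold or more with the same sign in both dyes was found for 0 of the 15 kept probes in T, where 0.409% of all kept probes had one, and for 0 in IP, where 0.151% had one. In T, 5 probes (3 of CCND2 and 2 of CDKN1B) were higher in sponge cells in both dyes, where 28.5% of all kept probes were, and 4 (CCND3 A_23_P361773, CDK4, RBL2 A_24_P416159 and E2F1) were lower, where 33.4% were. The other 6 had opposite signs in Cy3 and Cy5. In IP, 7 probes were higher (37.8% of all kept probes), namely those of CCND2 and CCND3, RBL2 A_24_P416159 and CDKN1B A_24_P81841. Lower in IP were 6 probes (35.7%), of CCNE1, CDK6, RB1, RBL2 A_23_P26413 and E2F1. The IP/T ratio was higher in sponge cells in both orientations for 6 probes (35.1% of all kept probes) and lower for 5 (28.8%). These shares lie near those of all kept probes. The medians of the 15 were -0.058 in T and 0.049 in IP, beside -0.016 and 0.0060 for all kept probes.

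**Figure D4:**
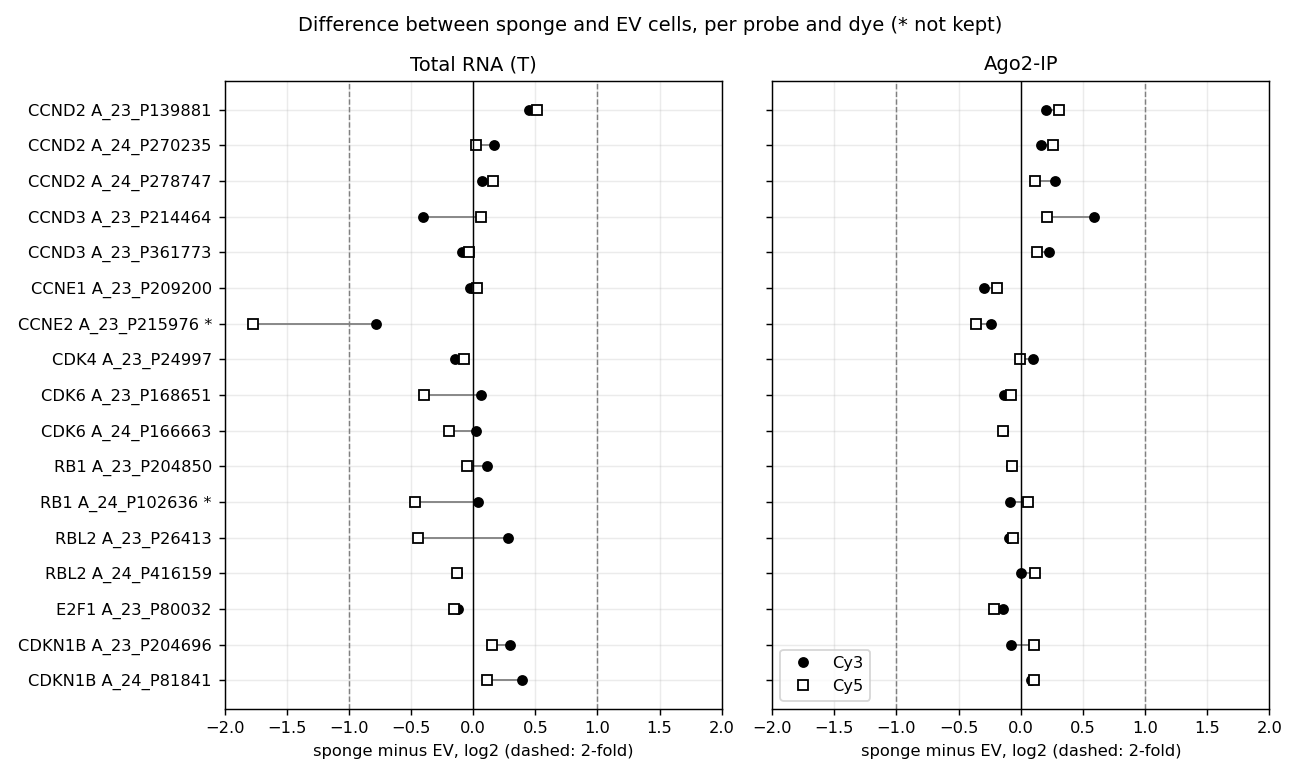
Sponge minus EV difference on the log2 scale (horizontal axis) in T (left) and IP (right) for each of the 17 probes, with Cy3 as filled and Cy5 as open markers. The kept probes stay within the dashed lines at 2-fold in both fractions, the CCND2 probes lie right of 0 in every reading, and the largest gaps between dyes are in T.

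The rest of the pathway was taken from a list of 74 other genes of the G1 to S transition, with 1 kept probe for each of 71. In EV cells 17 of these had an IP/T of 2 or more with a T signal well above background (17.5% of all kept probes reached 2). ARID4A, whose EV T signal was not, has no settled ratio, at 1.16-fold from the loess and Aquantile normalised channel means. The number in sponge cells was 17 (17.5%). Depletion of 2-fold or more was found for 9 in EV (19.0%) and 6 in sponge cells (17.8%), and 0 differed 2-fold between the populations in T (0.409%) or in IP (0.151%). The median log2 IP/T in EV cells was 0.16. By class, E2F and DP factors had the highest median (1.62, 5 of 9 at 2 or more), and the target genes of E2F, most of them replication genes, the lowest (-0.46, 1 of 20 at 2 or more and 6 depleted). In between, 4 of 10 cyclins and kinases, 1 of 7 CDK inhibitors, 1 of 6 pocket protein and DREAM genes, 4 of 11 genes of SCF ubiquitin ligases and G1 turnover, and 1 of 8 chromatin partners of RB, without ARID4A, were at 2 or more, beside the 17.5% of all kept probes.

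The 3 highest log2 ratios in EV cells were those of WEE1, the kinase that holds back CDK1 (4.67 ± 0.21), and of E2F7 (3.58 ± 0.20) and E2F5 (3.54 ± 0.06), both E2F factors that repress transcription. The 3 lowest were those of DNMT1, the maintenance DNA methyltransferase (-1.72 ± 0.10), CDKN3, a CDK phosphatase (-1.52 ± 0.15), and ORC1, a subunit of the origin recognition complex (-1.50 ± 0.12). Among the relatives of E2F1, E2F2 (1.62 ± 0.21) and E2F3 (2.89 ± 0.27) were enriched where E2F1 was not. CDKN1A (p21) had 1.78 ± 0.13 and CDKN1C (p57) -0.55 ± 0.14, beside the 2.74 and 4.53 of CDKN1B. CCND1 (0.42 ± 0.51) and CDK2 (0.32 ± 0.42) lay within their dye spread, and RBL1 (p107) had 0.49 ± 0.08.

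Between the populations, T differed by 0.56 ± 0.29 for USP28, a deubiquitinase, and by 0.51 ± 0.12 for CDKN1A, with 0.52 ± 0.03 for CDKN1A in IP and 0.0009 ± 0.08 in its log2 IP/T. ARID4A, an RB1 binding protein, has no settled T difference, because its EV T signal was well above background in 0 of 2 dyes. The loess and Aquantile normalised channel means put sponge T 1.02-fold above EV T. The lowest T differences were -0.33 ± 0.03 for FBXO4, an F-box protein, and -0.24 ± 0.15 for CDKN1C. The sponge T signal of FBXO4 was well above background in only 1 of 2 dyes.

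**Figure D5:**
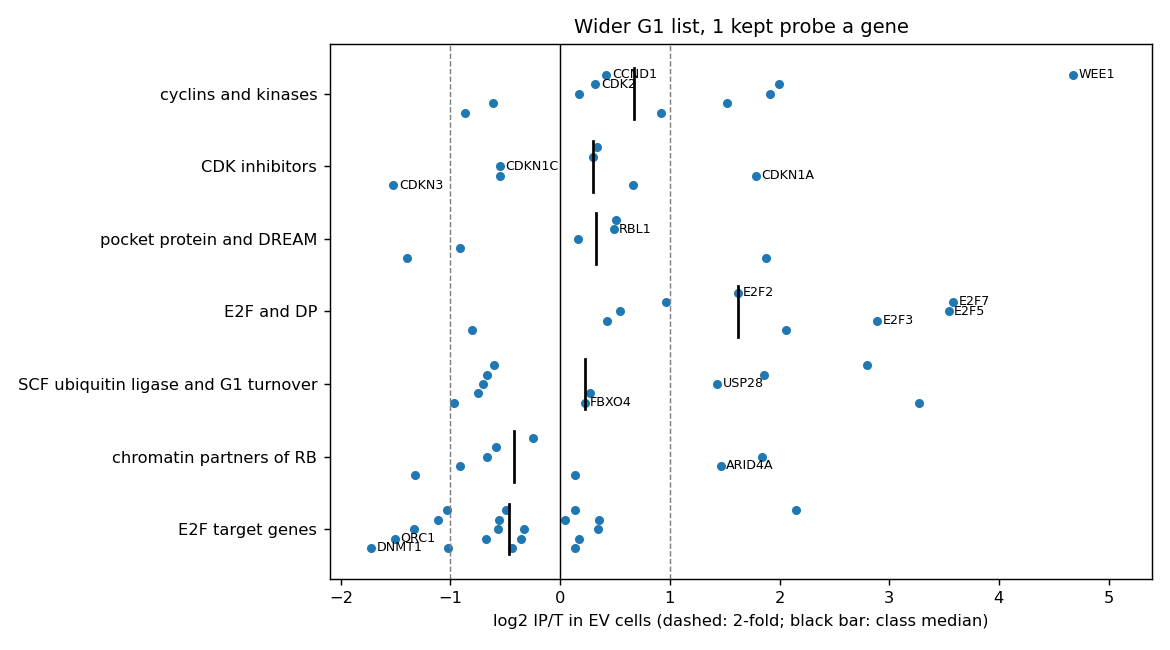
Log2 IP/T in EV cells (horizontal axis) of the 71 wider genes with a kept probe, by class (vertical axis, with points offset for clarity), with class medians as black bars and some of the genes given in the text labelled. ARID4A is drawn at its measured ratio although its T signal was not well above background. E2F and DP factors reach from below 0 to 3.58 with a median of 1.62, and most E2F target genes lie below 0.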

How the data were processed

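Scanner files of 4 Agilent two-colour arrays (1 slide) were used. The same file was deposited for both channels of an array. They hold spot intensity values that the authors extracted with Agilent Feature Extraction (version 10.5.1.1 per the labels, 10.7.3.1 per the file headers), background-subtracted and dye-normalised. The ratio and p-value columns of these files were not used. The deposited series table holds the authors' quantile-normalised log2 values of 22282 probes, of which 22268 were also kept here. Its rank correlation with the scanner channels was 1.0000, and it served as an alternative. Per the study's methods, log2 processed signals were quantile normalised over the 8 channels, filtered on detection and dye agreement, and averaged over Cy3 and Cy5.

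Control and outlier spots were dropped, and replicate spots averaged. Of 41000 probes, 60 had no value in a channel, 25827 were well above background (no fewer of their usable spots flagged so than not) in at least 4 channels, and 3356 of these differed over 2-fold between dyes in an RNA sample, leaving 22471. RefSeq symbols (GRCh38.p14, names only) were found for 69.5% of them. IP/T is the log2 difference of IP and T within an array.

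Every probe of the 10 genes is given. The members, the wider list and its rule (1 kept probe of highest mean signal a gene; the 3 highest and 3 lowest ratios in EV cells, the 2 largest T differences each way, and the relatives of members) were chosen with earlier results of these data known. CDKN1A's T difference fell under the rule for relatives. Alternatives were normexp (offset 50, on median signals) with loess and Aquantile or with quantile normalisation, 75th percentile scaling, the authors' values, other detection minimums (1 or 8 channels), no or a 1.5-fold dye filter, 1 dye, and 1 orientation. The steps were tested on simulated data. The normexp settings used limma 3.58.1 in R 4.3.3, the rest Python 3.11.15, numpy 2.4.6 and pandas 2.3.3. The number of arrays limits the precision.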

Additional observations from a re-analysis of the deposited data

Results flagged for a closer look

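For CCND3 probe A_23_P214464, IP lay below T on both EV arrays and above T on both sponge arrays, a log2 difference of 0.57 in IP/T between the populations that was not tested. It was 0.13 and 0.14 with the normexp settings and 0.15 to 0.99 with 1 dye left out. CCND3 probe A_23_P361773 was lower in T and higher in IP of sponge cells in both dyes, a log2 distance of 0.24 between both changes that was not tested. RBL2 probe A_24_P416159 showed the same pattern, with a log2 distance of 0.19 that was not tested. Its rise in IP was 0.0054 in Cy3 and 0.12 in Cy5, within the dye spread. With the normexp settings the T difference of CCND3 A_23_P361773 was positive. The dye gap of the sponge T sample was 1.35-fold for the first of these probes and 1.04-fold for the others. The part of this gap in these values was not tested.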

How the results depend on the processing

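The number of kept probes of the pathway at IP/T of 2 or more in EV cells ran from 4 to 8 over the alternatives, beside 6. Their median log2 IP/T in EV cells was 0.64 with the dye filter at 1.5-fold and 0.72 from the arrays with IP in Cy5 alone. Without the dye filter, 1 probe changed 2-fold in T, that of CCNE2, whose sponge T signal was not well above background. The median T difference was 0.0195 under normexp with loess and Aquantile, 0.0644 from the arrays with IP in Cy5, and -0.030 to 0.064 with 1 dye left out, so it has no settled sign. The log2 IP/T of CCNE2 ran from 0.82 to 3.81 in EV and from 0.62 to 5.34 in sponge cells over the alternatives. Single signs turned for CCND3 and CCND2. CCND3 A_23_P214464 had a log2 IP/T in EV cells of 0.051 under normexp with loess and Aquantile, and in sponge cells -0.029 to 0.66 with 1 dye left out. The T difference of CCND3 A_23_P361773 was 0.045 under normexp with loess and Aquantile and 0.037 under normexp with quantile normalisation. The difference in IP/T between the populations was -0.0069 to 0.23 for CCND2 A_24_P270235 and -0.048 to 0.20 for CCND2 A_24_P278747 with 1 dye left out. The cause was not tested. Of values beyond their dye spread, the sign held under every alternative for 14 of 15 probes in EV IP/T, 12 of 13 in sponge IP/T, 7 of 8 in T, 12 of 12 in IP and 7 of 9 in the change of IP/T. No paired analysis was possible because each group is 1 RNA sample.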

Other observations

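The E2F target genes of the wider list were shifted one way in the IP fraction. Of 20, 16 were higher in sponge IP in both dyes, where 37.8% of all kept probes were, and 0 were lower in both, where 35.7% were. In T, 9 of the 20 were also higher in both dyes (28.5% of all kept probes) and 4 lower (33.4%). The median difference was 0.13 on the log2 scale in IP and 0.044 in T, and over the alternatives the IP median stayed between 0.13 and 0.15. The largest values in IP were those of RRM1 (0.31 ± 0.22) and RRM2 (0.29 ± 0.12), the subunits of ribonucleotide reductase, and of MCM7 (0.31 ± 0.05), a subunit of the replicative helicase. E2F and DP factors went the other way in IP, with 7 of 9 lower in sponge cells in both dyes and a median of -0.13. Among other classes, 7 of 10 cyclins and kinases were higher in sponge IP in both dyes, and 5 of 6 pocket protein and DREAM genes lower. E2F targets also had the lowest class median IP/T in EV cells, and E2F and DP factors the highest. Outside both classes, CDKN3, depleted 2-fold or more in EV cells, was higher in sponge IP in both dyes (0.32 ± 0.11). SKP2 (-0.19 ± 0.03), CDC25A, WEE1, LIN9, FBXW7 and FBXO31, enriched 2-fold or more, were lower in both. Against that, LIN37 (-0.05 ± 0.02) and SMARCA4, both depleted, were lower. CDKN1A (0.52 ± 0.03), CCNC, CDK8 and USP28, all enriched, were higher. ARID4A and ARID4B had opposite signs in Cy3 and Cy5. How this relates to IP/T was not tested. All of these were read from 1 RNA sample a group, and the pattern was noticed after the values were seen.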
